A study of Sus scrofa domesticus with 2 samples.

Results

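SLPI, CFD and CRYAB were described in endothelial cells (ECs) cultured from the aorta and the lung of the domestic pig. These 3 genes of 22804 in the counts were chosen because they marked a subset of ECs in these same libraries, so every value below is a description of the data that chose them. A cell was taken as endothelial where it held more PECAM1 UMIs than COL1A1 and COL1A2 UMIs together. A UMI (unique molecular identifier) marks a single captured transcript, so molecules were counted and not reads. By this rule 704 of the 955 aorta cells within the limits on quality, and of 1185 in the library, were endothelial. In the lung 5305 of 5709 cells within the limits, and of 5946 in the library, were endothelial.

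SLPI encodes a small secreted inhibitor that blocks leukocyte serine proteases such as elastase, and it is best known from mucosal surfaces. CFD encodes factor D (adipsin), the serine protease that cleaves factor B once it is bound to C3b and so starts amplification in the alternative complement pathway. CRYAB encodes αB-crystallin, a small heat shock protein that holds unfolded proteins in solution. Dividing cells express genes for DNA replication in S phase and for mitosis in G2 and M phase, and the summed share of UMIs from such genes orders cells by how strongly they express the cycle program.

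The series holds 1 library of primary aorta ECs and 1 library of primary lung ECs, made to look for mesenchymal conversion of ECs in culture. The aorta close to the lung was sealed around a digestion buffer, and a lobe of lung was perfused and then sealed around one with collagenase. Both were held at 37 °C for 30 min and the cells set free were then cultured with 10% fetal calf serum, so both groups are cultured cells and not fresh tissue. The labels do not give the age, sex or number of the pigs of these cultures. With 1 library per tissue there was no replicate and no test was possible. The 95% intervals cover counting error only.

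The aorta ECs were far deeper, with a median of 53208.5 UMIs per cell against 9434 in the lung. For this reason shares of cells are also given after each cell had been thinned at random to 5000 UMIs, which kept 663 aorta and 4953 lung ECs. Of 14 endothelial markers 13 were among the features, and all 13 were higher in the ECs than in the other cells of both libraries, with summed levels of 3407 against 164 CPM (UMIs of a gene per 1000000 UMIs) in the aorta and 3417 against 533 CPM in the lung. PECAM1 is among the 13 and made the rule, so its direction was set in advance. It gave 1290 CPM of the aorta and 1592 CPM of the lung sum in ECs. VWF and KDR, which define ECs in tissue, were near 0, at 0.195 and 0.390 CPM in aorta ECs and 0.399 and 1.78 CPM in lung ECs. Immune markers summed to 5.91 CPM in aorta and 7.97 CPM in lung ECs, epithelial markers to 0.279 and 0.930 CPM, adipocyte markers to 0.864 and 0.247 CPM and fibroblast markers to 191 and 31.0 CPM. The fibroblast list holds COL1A1 and COL1A2, which the rule itself kept low in ECs. PTPRC had no UMI in aorta ECs, and ADIPOQ had none in ECs of either library. The libraries shared 5 cell barcodes, and 3 of these were ECs in the aorta library, 4 in the lung library.

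All 3 genes lie on the minus strand of the Sscrofa11.1 build, in gene models of RefSeq. SLPI (ENSSSCG00000039573) spans chr17:47595804-47598364 with no overlapping gene, and the nearest annotated gene is 13943 bases away. CFD (ENSSSCG00000013418) spans chr2:77509792-77511988, where it overlaps MED16, and ELANE, the gene of neutrophil elastase, lies 1781 bases away. CRYAB (ENSSSCG00000036724) spans chr9:39638505-39643530 and overlaps C9H11orf1 and HSPB2, another small heat shock gene. HSPB2 lies on the plus strand, opposite to CRYAB. Whether the counting used strand is not given in the sources used here, and whether reads of overlapping genes were kept apart was not tested. MED16 itself was counted at 16.5 CPM in aorta and 16.3 CPM in lung ECs, and neither HSPB2 nor C9H11orf1 was found by symbol among the features counted.

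The 250 bases before the RefSeq starts of SLPI and CFD are shown because the cells highest in these genes were partly the same. SLPI reads from chr17:47598365-47598614 and CFD from chr2:77511989-77512238, both on the minus strand and written 5′ to 3′. Capitals mark the TATA box letters TATAAA in SLPI and, in CFD, the GC box letters GGGCGG read on the other strand.
SLPI: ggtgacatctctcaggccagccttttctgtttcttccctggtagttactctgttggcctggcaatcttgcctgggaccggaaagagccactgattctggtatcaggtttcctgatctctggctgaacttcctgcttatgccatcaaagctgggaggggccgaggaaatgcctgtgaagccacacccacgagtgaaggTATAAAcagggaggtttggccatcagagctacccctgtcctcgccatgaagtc
CFD: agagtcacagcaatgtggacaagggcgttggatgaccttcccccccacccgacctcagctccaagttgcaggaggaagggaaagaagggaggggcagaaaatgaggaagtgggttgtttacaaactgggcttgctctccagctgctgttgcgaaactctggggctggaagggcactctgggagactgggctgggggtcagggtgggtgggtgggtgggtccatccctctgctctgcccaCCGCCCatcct
The annotated start of SLPI may lie within its transcript, since the window before it ends in letters that could hold a start codon, so positions are counted from the annotated start only and the window may not be the promoter. TATAAA was found once in the SLPI window, 53 bases before that start, and 9.77% of the 19531 windows of this length before RefSeq genes held it on either strand. CFD had no TATAAA and had 1 match to GGGCGG, 11 bases before the start, as 45.9% of windows did. The core letters of the interferon-stimulated response element matched 1 time in SLPI, 227 bases before the start, and 3% of windows held it. CANNTG, the E-box, matched 1 time in CFD, 112 bases before the start, and 61.9% of windows held it. The CCAAT box, the AP-1 site with the letters TGANTCA, the letters TTTGAA of cycle-dependent promoters and the heat shock element, all searched on both strands, had no match in either window. They were held by 31.9%, 5.25%, 12.5% and 0.333% of windows. Thus the windows had none of these letter patterns in common. No window is shown for CRYAB, since its annotated starts lie in or beside an exon of HSPB2.

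SLPI and CRYAB had the higher levels in aorta ECs, and SLPI in lung ECs. SLPI stood at 601 CPM (593 to 609) in aorta and 106 CPM (103 to 109) in lung ECs, ranking 214 of 15424 and 1443 of 15644 genes with a UMI. CRYAB stood at 427 CPM (420 to 433) in aorta and 55.8 CPM (53.8 to 57.9) in lung ECs. CFD stood at 76.1 CPM (73.3 to 79.0) in aorta and 58.5 CPM (56.4 to 60.6) in lung ECs. The other cells were all those with PECAM1 not above collagen, 66 aorta and 48 lung cells at equal counts among them. They were not of 1 type, with immune markers at a summed 101 CPM in the lung. In these other cells SLPI was at 11.5 CPM in the aorta and 22.3 CPM in the lung, and CFD at 2.47 and 13.6 CPM. CRYAB was at 296 and 80.7 CPM there, so in the lung it was higher in the other cells than in the ECs. SLPI and CFD were thus higher in the ECs of both libraries, and CRYAB in those of the aorta. The aorta levels depended on the choice of cells. In ECs with 3 or more PECAM1 UMIs and no collagen UMI, SLPI stood at 296 CPM there, beside CRYAB at 304 CPM, and in ECs with under 5000 detected genes CFD stood at 29.9 CPM.

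Cells just inside and just outside the PECAM1 rule were few. Aorta cells with PECAM1 exactly 1 UMI above collagen, 26 in all, had 322 CPM of SLPI, 12.9 of CFD and 990 of CRYAB, and the 66 cells at equal counts had 87.1, 9.67 and 600 CPM. Lung cells 1 UMI above, 42 in all, had 223, 58.2 and 67.8 CPM, and the 48 at equal counts had 58.8, 118 and 109 CPM. SLPI was thus lower just outside the rule in both libraries.

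A UMI of SLPI was present in 70.6% of aorta and 30.9% of lung ECs, of CFD in 58.1% and 31.2%, and of CRYAB in 90.2% and 26.1%. At 5000 UMIs per cell, SLPI was detected in 43.0% of aorta ECs (39.2 to 46.9%) and 22.1% of lung ECs (20.9 to 23.3%). CFD was detected in 19.5% (16.5 to 22.7%) and 19.3% (18.2 to 20.4%), so the share of CFD-positive cells was nearly the same in both. CRYAB was detected in 64.3% (60.5 to 67.9%) and 17.2% (16.2 to 18.3%). Free RNA also gives UMIs to cells that do not express a gene. At the same depth the other cells had SLPI in 1.23% (aorta) and 4.56% (lung), CFD in 0.614% and 3.95% and CRYAB in 62.0% and 25.8%. The shares of SLPI and CFD in ECs stood well above these, and the intervals of CRYAB overlapped in the aorta (54.0 to 69.4% in the other cells). The other cells are not known to lack CRYAB, and the part of free RNA in its share was not tested.

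**Figure D1:**
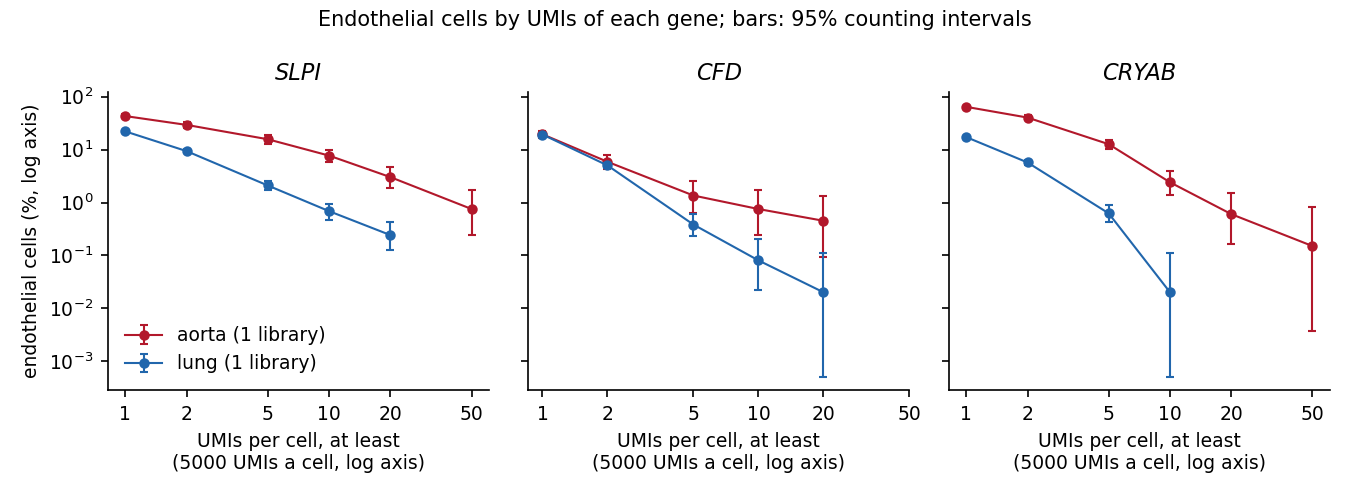
Share of endothelial cells (%, log axis) with at least the number of UMIs on the x axis (log axis) after thinning to 5000 UMIs a cell, for SLPI, CFD and CRYAB, with points for the aorta and lung libraries and bars for 95% Clopper-Pearson intervals. The CFD lines start together at 19.5% and 19.3%, whereas 7.69% of aorta and 0.687% of lung cells held 10 or more SLPI UMIs.

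The counts were very uneven among cells, and a few cells carried much of each gene. The median aorta EC held 2 SLPI UMIs, the 90th percentile was 70.4, the 99th 370.6 and the maximum 1415. The 10% of aorta ECs with most SLPI, 70 cells, held 73.4% of its UMIs, and the 530 lung cells of the top 10% held 73.8%. For CFD the same shares of cells held 69.9% and 60.7%, and for CRYAB 46.0% and 68.6%. CRYAB in the aorta had the lowest such share, with a median of 11 UMIs, a 90th percentile of 51.7 and a maximum of 725. These shares are of unthinned counts and rise where a cell holds few UMIs of the gene. They therefore depend on depth and level and do not by themselves show a difference in spread.

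The top 1% of ECs by each gene, 7 in the aorta and 53 in the lung, held 27.9% and 27.1% of the SLPI UMIs. They held 35.6% and 18.8% of the CFD UMIs and 12.5% and 17.9% of the CRYAB UMIs. Without them SLPI stood at 439 and 78.1 CPM, CFD at 49.5 and 48.1 CPM and CRYAB at 378 and 46.4 CPM. The CFD levels of the libraries then lay close together.

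Single cells of very high level were seen in both libraries. The aorta cell with most SLPI held 1415 SLPI UMIs among 57997 and 30 of CFD. Another held 1181 SLPI UMIs, 363 of CFD, the highest CFD count of the library, and 41 of CRYAB among 41196. The next cells by CFD held 242 and 129 CFD UMIs with 134 and 53 of SLPI, and the fourth held 74 with none of SLPI. In the lung a single cell was highest for both SLPI and CFD, with 110 and 41 UMIs among 10812 and 1 of CRYAB. The cells highest in CRYAB were different ones. The aorta cell with 725 CRYAB UMIs had 19 of SLPI and 4 of CFD, and the lung cell with 25 had 1 and 0. All of the cells named here were in G1 by score. Others of the 5 highest for a gene were in G2M. These were the second aorta cell by CRYAB, with 261 UMIs, and the fifth lung cells by SLPI and by CRYAB, with 65 and 17.

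Markers of other cell types were checked beside these levels. Of the aorta ECs 153 held at least 1 UMI of an immune marker, and these had 661 CPM of SLPI, 117 of CFD and 547 of CRYAB, against 581, 62.4 and 387 CPM in the 551 cells with none. In the lung 326 cells with an immune UMI had 175, 75.8 and 65.0 CPM, against 101, 57.2 and 55.1 CPM in 4979 with none. The 22 aorta ECs with a UMI of an adipocyte marker had 229 CPM of CFD, against 70.3 CPM in the 682 without. In the lung CFD went the other way, at 24.8 CPM in 13 such cells against 58.6 CPM in 5292 without. The adipocyte UMIs of aorta ECs were 30 of CIDEC and 1 of PLIN1, so the aorta value rests almost on 1 gene. Fibroblast markers went with SLPI in aorta ECs at equal depth, at a summed 241 CPM with and 159 CPM without a SLPI UMI. Of the 5 markers detected in 5% of cells 1 was past 2-fold, LUM, where 1.49% of all genes were at least 2-fold higher. LUM stood at 37.2 against 4.23 CPM from 53 and 8 UMIs. COL1A2 had a ratio of 1.80 (1.29 to 2.53), DCN 1.79 (1.01 to 3.21), COL1A1 1.60 (0.951 to 2.71) and COL3A1 1.06 (0.834 to 1.34). Not all of the list marked the other cells of the aorta, since 3 of its 7 genes were higher in ECs. LUM, at 15.7 CPM in ECs against 11.7 CPM, and DCN, at 18.5 against 4.72 CPM, were among the 3. In the lung the list summed to 28.2 CPM with and 30.5 CPM without a SLPI UMI. By CFD it summed to 212 against 190 CPM in the aorta and 32.9 against 29.3 CPM in the lung, and by CRYAB to 209.9 against 166 CPM and 35.1 against 28.9 CPM. The part of such markers in the levels was not tested. Aorta ECs with under 1% of UMIs from mitochondrial genes, 27 shallow cells, had 753 CPM of SLPI, 44.9 of CFD and 1056 of CRYAB.

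Between the libraries, SLPI was 5.68 times as high in aorta as in lung ECs (5.52 to 5.85) and CRYAB 7.65 times (7.35 to 7.96). CFD was 1.30 times as high (1.24 to 1.37). Of 7809 genes at 10 CPM or more in either library, 3.51% were at least 2-fold higher in the aorta and 1.32% at least 2-fold lower, and SLPI and CRYAB are among the former. Cells, culture and depth differ with the tissue, and the animal may differ too, since the labels do not give it. These cannot be told apart in 1 library each. The direction held for SLPI and CRYAB in every other choice of cells tried, with ratios of 3.04 to 5.98 and 5.59 to 8.14. CFD did not keep its direction. It was 0.514 times the lung level in cells with under 5000 detected genes, 0.959 times in cells with 3 or more PECAM1 UMIs and no collagen UMI, and 1.03 times without the top 1% of cells by CFD.

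Cells with SLPI also held more CFD and more CRYAB in both libraries. At 5000 UMIs per cell, CFD stood at 151 CPM in the 285 aorta ECs with a SLPI UMI and 46.6 CPM in the 378 without, a ratio of 3.24 (2.52 to 4.20). In the lung it stood at 93.7 CPM in 1093 cells and 46.8 CPM in 3860, a ratio of 2.002 (1.79 to 2.23). CRYAB stood at 533 against 331 CPM in the aorta, a ratio of 1.61 (1.45 to 1.80), and at 97.2 against 43.6 CPM in the lung, a ratio of 2.23 (1.996 to 2.49). Cells with a SLPI UMI also had fewer cycle UMIs, 0.418% against 0.721% in the aorta and 0.462% against 0.612% in the lung, and a higher median mitochondrial share, 5.53% against 4.93% in the lung. CRYAB in cells with over cells without a CFD UMI had a ratio of 1.23 (1.09 to 1.40) in the aorta and 1.59 (1.41 to 1.79) in the lung. In aorta ECs with 3 or more PECAM1 UMIs and no collagen UMI the order of these ratios was another, with CFD by SLPI at 1.48 (0.729 to 2.92), CRYAB by SLPI at 2.40 (1.79 to 3.21) and CRYAB by CFD at 2.67 (1.98 to 3.58).

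How common such ratios were among all genes differed between the libraries. Among genes with a UMI in at least 5% of the thinned cells, 1.49% of 7450 in the aorta were at least 2-fold higher with a SLPI UMI, 1.03% with a CFD UMI and 0.899% with a CRYAB UMI. In the lung, of 7264 genes, the shares were 0.124%, 0.0275% and 0.0688%, which are 9, 2 and 5 genes. The genes in these lung counts were named after their values were seen. The 9 with SLPI were EPHX1 (2.39), an epoxide hydrolase, ENSSSCG00000037358 (2.28), GDF15 (2.24), a stress-induced cytokine, CRYAB (2.23), ISG12(A) (2.16), an interferon-induced gene, KLHL24 (2.01), C1S (2.01), a complement protease, NUDT22 (2.01) and CFD (2.002). The 2 with CFD were SLPI (2.29) and EPHX1 (2.05). The 5 with CRYAB were SLPI (2.98), GDF15 (2.73), the metallothionein MT1A (2.15), the p53 target TP53INP1 (2.11) and IL1A (2.06), a cytokine. In the lung, therefore, each gene of the set was named by at least 1 other, and CFD and CRYAB did not name each other.

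The few highest cells carried a large part of the tie between SLPI and CFD. Without the top 1% of cells by the measured gene, the CFD ratio by SLPI was 1.73 in the aorta and 1.42 in the lung, and that of CRYAB by SLPI 1.69 and 1.92. That of CRYAB by CFD was 1.35 and 1.52. In aorta cells with under 5000 genes the CFD ratio by SLPI was 1.12 with an interval of 0.270 to 4.40, which cannot tell a higher level from a lower one. Detection moved less than level. CFD was detected in 23.2% of aorta ECs with SLPI and 16.7% without, and in 24.0% and 17.9% of lung ECs. CRYAB was detected in 69.8% and 60.1% of aorta ECs with and without SLPI and in 26.4% and 14.6% of lung ECs.

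CFD and CRYAB were highest in the cells with most SLPI UMIs. In the aorta CFD stood at 46.6, 59.3, 55.6, 128 and 506 CPM in cells with 0, 1, 2 to 4, 5 to 9 and 10 or more SLPI UMIs. In the lung the same classes had 46.8, 63.2, 85.8, 154 and 618 CPM. The CFD intervals of the libraries overlapped in each class, also in that of 2 to 4 UMIs (36.0 to 82.0 and 72.8 to 100.5 CPM). CRYAB stood at 331, 442, 484, 566 and 749 CPM in the aorta and at 43.6, 67.3, 115, 163 and 324 CPM in the lung. The last class held 51 aorta and 34 lung cells, with 129 and 105 CFD UMIs. Few cells can carry much of such counts, and the classes were not read without the top 1% of cells by the gene. In the 5 aorta cells with 10 or more CFD UMIs SLPI was at 12080 CPM, and in the 4 lung cells it was at 3600 CPM.

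**Figure D2:**
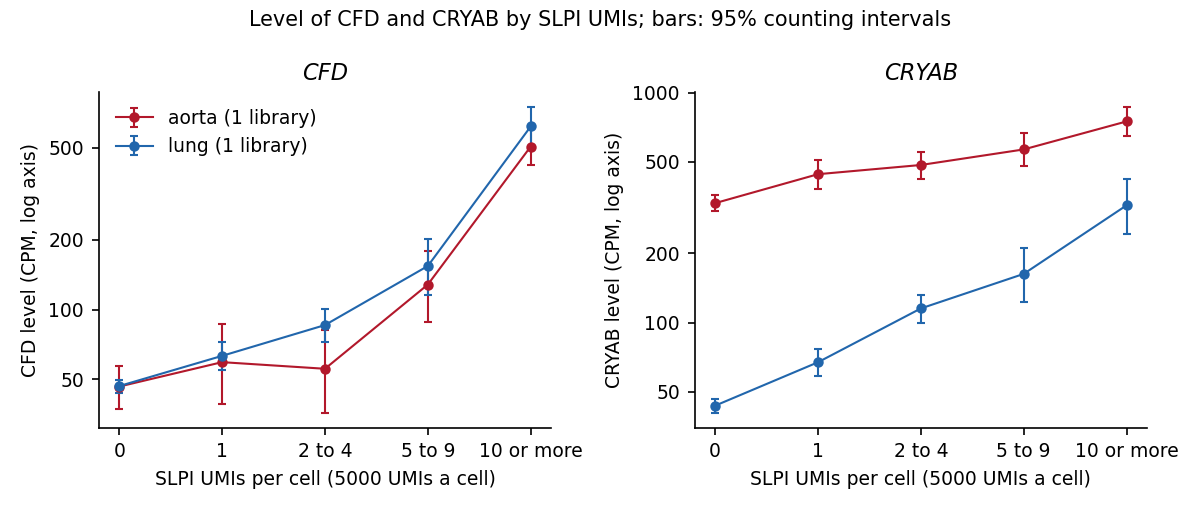
Level of CFD (left) and CRYAB (right) in CPM (log axis) in endothelial cells grouped by their SLPI UMIs after thinning to 5000 UMIs, for the aorta and lung libraries, with 95% Poisson intervals as bars. CFD reached 506 CPM in the aorta and 618 CPM in the lung at 10 or more SLPI UMIs, and CRYAB 749 and 324 CPM. That class held 51 aorta and 34 lung cells, and no value without the top cells by the gene is shown.

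All 3 genes were detected together in 46 of 663 aorta ECs (6.94%) and 89 of 4953 lung ECs (1.80%) at this depth. Genes with no tie are also detected together in some cells. SLPI, CFD and CRYAB were each detected in 43.0, 19.5 and 64.3% of these aorta ECs and 22.1, 19.3 and 17.2% of the lung ECs. The joint share that these alone would give was not computed, so the joint counts do not by themselves show a tie. None was detected in 130 aorta cells (19.6%) and 2734 lung cells (55.2%). The cells that held all 3 had 0.259% of UMIs from cycle genes in the aorta and 0.330% in the lung, and those that held none 0.789% and 0.639%. Most positive cells held a single gene or a pair, such as 153 aorta cells with SLPI and CRYAB only and 631 lung cells with SLPI only. Of the 66 aorta cells in the top 10% by each gene, SLPI and CFD shared 23 (34.8%), SLPI and CRYAB 16 (24.2%), CFD and CRYAB 10 (15.2%), and all 3 shared 6. Of the 495 lung cells in each top 10% these numbers were 103 (20.8%), 124 (25.1%), 84 (17.0%) and 32. For a pair of unrelated genes about 10% would be shared. The 3 genes were chosen because they marked a subset of these same ECs, so a larger share can follow from that choice and is only a description. Each top 10% was taken by level in the unthinned counts of these cells.

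Across cells the correlations were weak, as is usual for sparse counts, and are given as descriptions. Pearson's r of log-normalized counts between SLPI and CFD was 0.21 in the aorta (Spearman's rho 0.12, n = 663 cells of 1 library) and 0.14 in the lung (rho 0.08, n = 4953). Between SLPI and CRYAB it was 0.19 (rho 0.18) and 0.19 (rho 0.15), and between CFD and CRYAB 0.11 and 0.10 (rho 0.08 in each). By rank, SLPI was the gene second highest in r with CFD and the third with CRYAB among 7264 genes in the lung, and it ranked 12 and 18 among 7450 in the aorta. Seen from SLPI, CRYAB ranked 11 and CFD 35 in the lung and 63 and 43 in the aorta.

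All 3 genes were higher in ECs with the least cycle gene UMIs than in those with the most. ECs were divided into 4 equal cycle groups by the share of UMIs from 41 S phase and 51 G2M phase genes, which had pooled shares of 0.110, 0.253, 0.699 and 1.17% in the aorta, with 176 cells each. SLPI stood at 1278, 776, 260 and 179 CPM from the lowest to the highest cycle group, a ratio of 7.15 between the ends (6.80 to 7.51). CRYAB stood at 621, 603, 279 and 245 CPM, a ratio of 2.54 (2.42 to 2.66). CFD stood at 109, 156, 23.3 and 27.6 CPM, a ratio of 3.97 (3.47 to 4.54), and was thus highest in the second cycle group. The SLPI ratio was 16.4 in ECs with under 5000 genes and 3.84 in those with 3 or more PECAM1 UMIs and no collagen UMI. In those last cells the ratio of CFD was 2.44. The fibroblast markers also summed higher in the lowest cycle group of the aorta, at 275 against 149 CPM, with LUM at 5.55 times and DCN at 4.32 times the level of the highest, and in the lung they summed to 28.4 against 31.6 CPM. LUM and DCN were both higher in aorta ECs than in the other cells of that library. The lowest cycle group held 51.0% of the SLPI UMIs, 34.5% of those of CFD and 34.9% of those of CRYAB.

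In the lung the cycle groups had pooled cycle shares of 0.153 to 1.06% and about 1326 cells each. SLPI stood at 236, 94.0, 54.1 and 54.8 CPM, a ratio of 4.30 between the ends (3.98 to 4.65). CFD stood at 106, 59.7, 39.6 and 35.6 CPM, a ratio of 2.97 (2.68 to 3.29), and CRYAB at 94.2, 58.4, 37.6 and 38.3 CPM, a ratio of 2.46 (2.22 to 2.72). Each gene was lower from the first cycle group to the third and differed little between the third and the fourth. Of all genes at 10 CPM or more in an outer cycle group, 3.81% of 8015 were at least 2-fold higher in the lowest cycle group of the aorta and 0.957% of 7732 in that of the lung. In the other direction 11.8% and 6.78% of genes were at least 2-fold lower, the cycle genes that made the cycle groups among them.

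**Figure D3:**
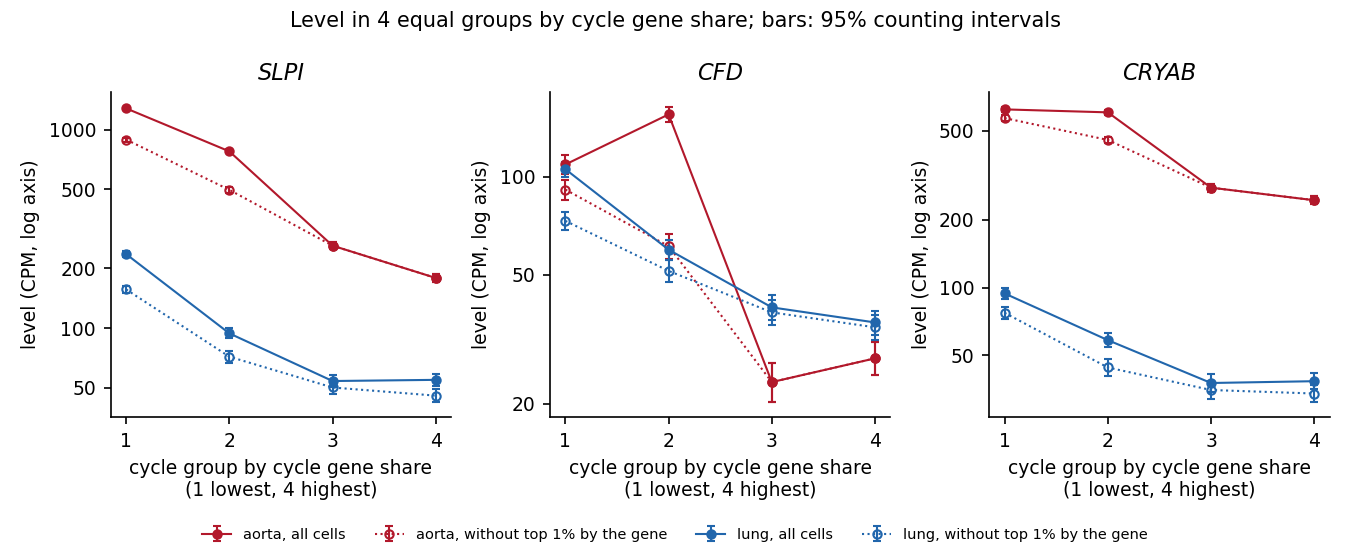
Level (CPM, log axis) of SLPI, CFD and CRYAB in cycle groups of endothelial cells from the lowest (1) to the highest (4) share of cycle gene UMIs, for all cells (filled points, solid lines) and without the top 1% of cells by the gene (open points, dotted lines), with 95% Poisson intervals as bars. Every gene was higher in cycle group 1 than in cycle group 4 in both libraries, and the high aorta CFD value of cycle group 2, 156 CPM, was 61.2 CPM without those cells.

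The order of the aorta CFD cycle groups rested on few cells. The 3 cells with most CFD all lay in the second cycle group, and without the top 1% of cells CFD stood at 91.4, 61.2, 23.3 and 27.6 CPM. SLPI without its top cells had ratios between the ends of 4.98 in the aorta and 3.43 in the lung, CFD 3.32 and 2.13 and CRYAB 2.32 and 2.29. Detection at 5000 UMIs showed the same order. SLPI was detected in 71.3% of aorta cells of the lowest and 25.6% of the highest cycle group, and in 36.6% and 14.9% of lung cells. CFD was detected in 30.5% and 14.6% in the aorta and 28.0% and 14.5% in the lung, and CRYAB in 78.4% and 58.5% and in 27.6% and 13.4%. The median mitochondrial share also moved with the cycle groups, from 7.35% to 5.55% in the aorta and from 5.86% to 4.62% in the lung, and its part in these values was not tested.

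Scoring each cell for its phase gave the same picture with other groups. The scores used the same S phase and G2M lists as the cycle groups, so this was not an independent check. Aorta cells in G1, 326 in all, had 1098 CPM of SLPI, 141 of CFD and 620 of CRYAB, cells in S phase, 122, had 199.8, 20.1 and 274 CPM, and cells in G2M, 256, had 222, 28.3 and 278 CPM. Lung cells in G1, 2303 in all, had 177, 88.2 and 81.2 CPM, those in S phase, 891, had 50.8, 44.5 and 36.2 CPM, and those in G2M, 2111, had 61.1, 36.2 and 40.0 CPM. S and G2M cells differed from each other by little beside their distance from G1. A cell called G1 by score is one low in both lists and need not have left the cycle.

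Read from the side of the members, cycle genes were lower in cells rich in SLPI. The S phase list summed to 2323 CPM in aorta cells with no SLPI UMI and 839 CPM in those with 10 or more, and the G2M list to 4284 and 1408 CPM. In the lung these were 1936 and 782 CPM and 3849 and 1465 CPM. With a SLPI UMI in the aorta, 7 of 36 S phase genes above this limit and 13 of 47 G2M genes were at least 2-fold lower and none higher, where 1.84% of all genes were lower. Examples are MCM5, a helicase subunit of DNA replication (22.5 against 57.7 CPM), AURKB, a mitotic kinase (16.1 against 40.2 CPM), and GTSE1 (10.5 against 29.6 CPM). In the lung 1 of 33 S phase genes, E2F8, and 0 of 46 G2M genes passed 2-fold, where 0.110% of all genes were lower. With a CFD UMI in the aorta 5 of 36 S phase and 6 of 47 G2M genes were at least 2-fold lower, where 2.86% of all genes were, and with a CRYAB UMI 0 and 2, where 0.416% were. In the lung none of either list passed 2-fold by CFD or CRYAB, where 0% and 0.0138% of all genes were lower. By SLPI the medians were −0.70 and −0.79 on the log2 scale in the aorta and −0.45 and −0.46 in the lung, beside −0.03 over all genes in each library.

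Because cycle share moves with all 3 genes, co-expression was also read within each cycle group. CRYAB was higher with than without a SLPI UMI in each cycle group of both libraries, with ratios of 1.91, 1.17, 1.25 and 1.09 in the aorta and 1.51, 2.89, 2.30 and 1.40 in the lung. The first of the aorta ratios had an interval above 1 (1.51 to 2.44), as did the first 3 in the lung. Without the top 1% of cells by CRYAB the second aorta ratio was 1.59 (1.29 to 1.98) and the fourth lung ratio 1.49 (1.04 to 2.09). CRYAB by CFD had ratios of 0.918, 1.23, 0.665 and 1.35 in the aorta, with intervals that all held 1, and of 1.30, 1.69, 1.10 and 1.53 in the lung, where all but the third had intervals above 1. CFD by SLPI had ratios of 1.65, 1.98, 1.35 and 1.35 in the lung, of which the first 2 had intervals above 1. In the aorta it had ratios of 0.759, 8.61, 2.72 and 0.465, with an interval above 1 only in the second cycle group, where it was 1.996 without the top 1% of cells. In the lowest cycle group of the lung it was 1.08 (0.884 to 1.32) without them. In its second cycle group it was 1.39 (1.06 to 1.80) without them.

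Cells were further ranked by other gene lists, and the top 10% by each list was set against the rest, 70 against 634 cells in the aorta and 530 against 4775 in the lung. In the top 10% by cycle arrest genes, inhibitors and p53 targets such as MDM2 and GADD45A, all 3 genes were higher. SLPI had ratios of 5.36 in the aorta and 3.44 in the lung, CFD 5.75 and 2.01 and CRYAB 1.57 and 2.32. Without the top 1% of cells by the gene these were 3.12 and 2.34, 2.11 and 1.45, and 1.81 and 1.85. SLPI was detected at 5000 UMIs in 66.1% of the top 10% and 40.6% of the rest in the aorta and in 36.7% and 20.6% in the lung. The top 10% also had fewer cycle UMIs, 0.413% against 0.605% in the aorta and 0.449% against 0.588% in the lung.

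The top 10% by heat shock response genes, chaperones such as HSPD1, HSPA8 and HSP90AA1, stood at the other end. SLPI was at 70.2 CPM there and 654 CPM in the rest of the aorta, a ratio of 0.107, and at 25.1 and 114 CPM in the lung, a ratio of 0.221. CFD had ratios of 0.177 and 0.466. CRYAB, itself a heat shock protein, had ratios of 1.06 in the aorta and 0.408 in the lung, and 0.452 and 0.494 without the top 1% of cells by CRYAB. These cells had more cycle UMIs, 0.850% against 0.564% in the aorta and 0.639% against 0.570% in the lung, whose part was not tested.

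SLPI and CRYAB were higher in the 10% richest in arterial genes, and CFD differed little. SLPI had ratios of 2.56 and 2.10 in the aorta and the lung and CRYAB 1.48 and 2.08, while CFD had 1.16 (1.03 to 1.31) and 1.03 (0.911 to 1.17), and 0.644 in the aorta without its top cells. This top 10% also had fewer cycle UMIs, 0.371% against 0.6145% in the aorta and 0.462% against 0.587% in the lung, whose part was not tested. In the 10% richest in contractile genes SLPI had ratios of 2.34 and 1.47, CRYAB 1.24 and 1.30 and CFD 0.936 and 0.998. Without the top cells by each gene these were 3.54 and 1.53, 1.25 and 1.19, and 1.19 and 0.993. Cycle UMIs were also fewer in the 10% richest in contractile genes, 0.431% against 0.607% in the aorta and 0.544% against 0.580% in the lung. In the 10% richest in interferon-induced genes SLPI had ratios of 1.01 and 2.26, CFD 1.51 and 1.86 and CRYAB 2.24 and 1.68. Without the top cells by each gene these were 1.16 and 1.70, 1.525 and 1.44, and 1.45 and 1.40. Cycle UMIs were again fewer in this top 10%, 0.488% against 0.601% in the aorta and 0.472% against 0.588% in the lung. Inflammatory genes gave 1.30 and 1.74 for SLPI, 0.863 and 1.48 for CFD and 1.28 and 1.39 for CRYAB, and SLPI was at 0.580 in the aorta without its top cells. Venous genes gave 1.41 and 0.942 for SLPI, 0.916 and 0.844 for CFD and 1.03 and 1.37 for CRYAB. Without its top cells SLPI was at 0.790 in the aorta and 1.26 in the lung for this list.

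**Figure D4:**
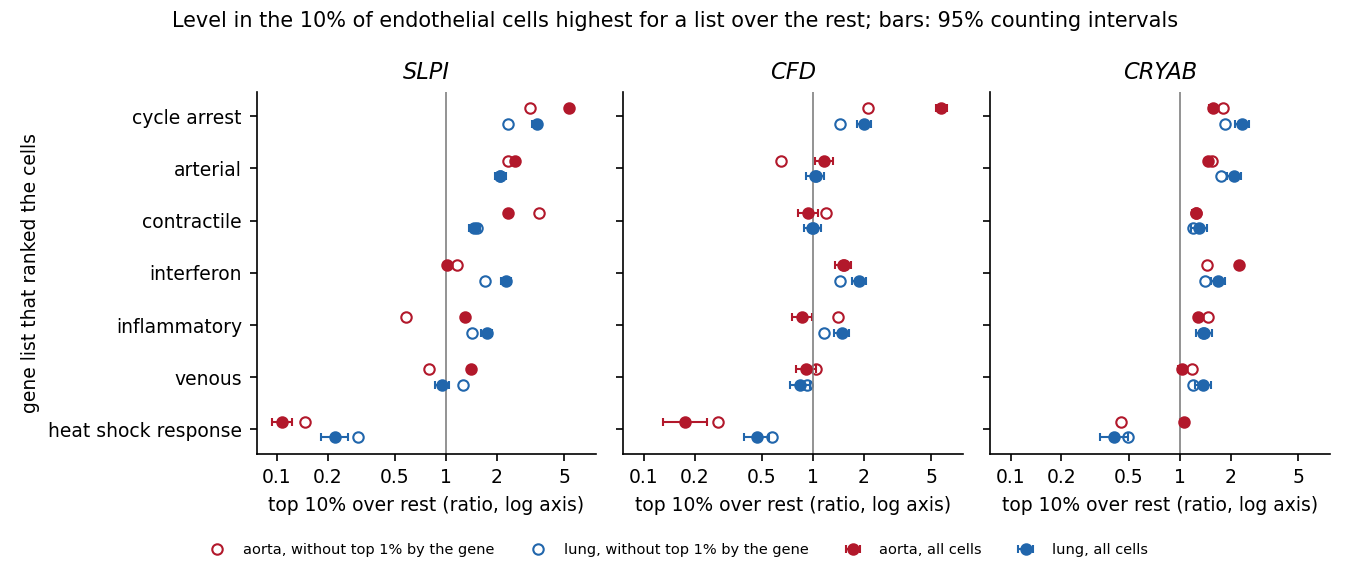
Ratio (log axis) of each gene's level in the 10% of endothelial cells with the highest share of UMIs from a gene list over its level in the rest, for aorta and lung, with 95% counting intervals for all cells (filled) and values without the top 1% of cells by the gene (open). SLPI lay at 0.107 and 0.221 for the heat shock response list and at 5.36 and 3.44 for cycle arrest, the lowest and the highest of its 7 ratios over all cells in each library. Without its top cells the aorta ratio was higher for contractile genes (3.54) than for cycle arrest (3.12).

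The 5 genes most like SLPI in the aorta, by Pearson's r over 663 cells, were FBLN5, an elastic fibre protein (0.42), TIMP3, an inhibitor of matrix metalloproteases (0.37), fibronectin FN1 (0.37), IGFBP7 (0.33) and MGP, matrix Gla protein (0.32). In the lung, over 4953 cells, they were ISG12(A) (0.26), TMSB4X, which binds actin monomers (0.25), the mitochondrial gene COX1 (0.24), IGFBP7 (0.23) and FTL, the ferritin light chain (0.21). The other genes named for the aorta had an r in the lung of 0.18 for FBLN5, 0.15 for TIMP3, 0.17 for FN1 and 0.14 for MGP. By the lower r of both libraries the 5 genes most like SLPI were ISG12(A), TMSB4X, IGFBP7, FTL and COX1.

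CFD and CRYAB shared some of these. For CFD the highest in the aorta were S100A6, a calcium-binding protein (0.29), ENSSSCG00000029761 (0.28), ECM1 (0.27), GDF15 (0.25) and ISG12(A) (0.25), and in the lung S100A6 (0.17), ISG12(A) (0.12), the DNA repair gene MGMT (0.12), FTL (0.12) and TPT1 (0.12). For CRYAB they were S100A6 (0.41), cystatin C gene CST3 (0.30), TMSB4X (0.29), GDF15 (0.22) and the protease gene PRSS23 (0.22) in the aorta and CST3 (0.22), S100A6 (0.20), FTL (0.19), COX1 (0.18) and ISG12(A) (0.17) in the lung. The lower r of both libraries placed S100A6, ISG12(A), MGMT, FTL and TPT1 first for CFD and CST3, S100A6, FTL, ISG12(A) and MGMT first for CRYAB. ISG12(A) and FTL are thus on the joint lists of all 3 genes. The lowest r of SLPI, named after its value was seen, was that of PTMA, prothymosin α, at −0.45 in the aorta and −0.29 in the lung, and PTMA was lowest for CFD (−0.26 and −0.17) and CRYAB (−0.23 and −0.23) too.

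**Figure D5:**
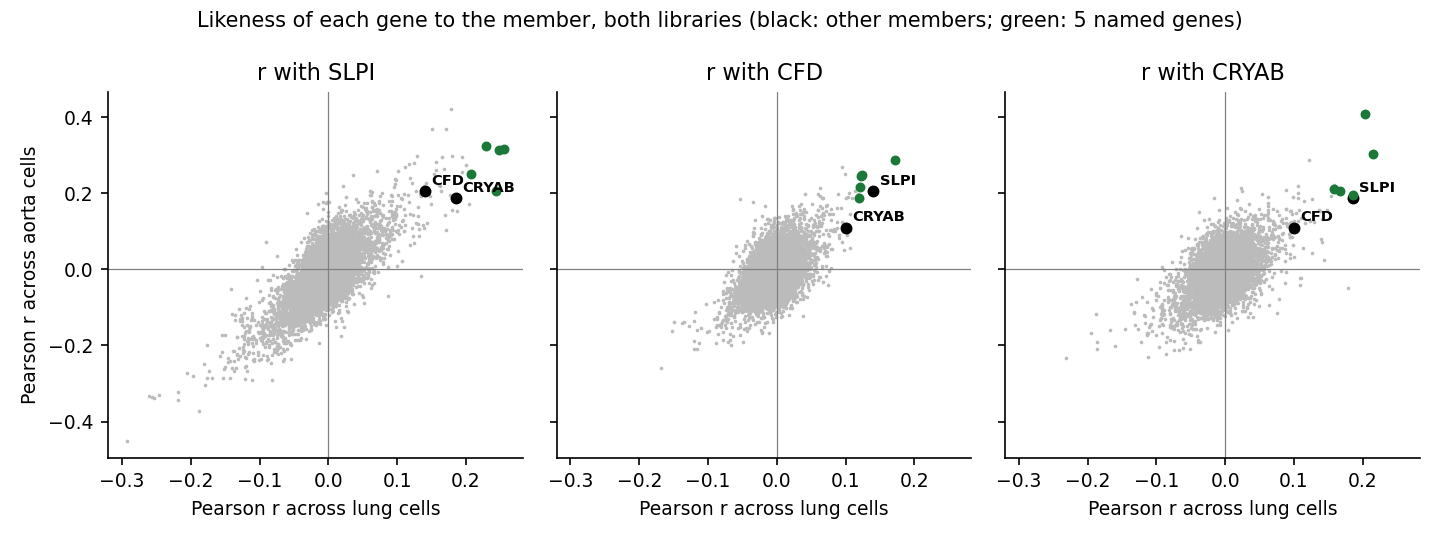
Pearson's r of each gene with SLPI, CFD or CRYAB across lung endothelial cells (x axis) and aorta endothelial cells (y axis), where grey points are genes, black points the other genes of the set and green points the 5 genes with the highest lower r of both libraries. The r of all genes in the lung and in the aorta correlated at 0.75 for SLPI, 0.51 for CFD and 0.52 for CRYAB, and of 6972 genes 73 had an r with SLPI above 0.1 in both, 110 had one below −0.1 in both and 0 had opposite signs past 0.1.

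The known partners of these genes were read in the same cells. Of the leukocyte proteases that SLPI acts on or that neutrophils store with them, ELANE, PRTN3, AZU1 and MPO were among the features, and all 4 had 0 UMIs in ECs of both libraries. Of 18 complement genes 13 were among the features. C3 was at 3.399 CPM and CFB, the substrate of factor D, at 0.474 CPM in aorta ECs, against 0.588 and 0.0569 CPM in lung ECs, from 17 and 3 CFB UMIs. C1S, C1R and CLU passed the limit of 5% of cells. C1S, a protease of the classical pathway, stood at 70.2 CPM with and 20.1 CPM without a SLPI UMI in the aorta and at 33.5 and 16.6 CPM in the lung. CLU, clusterin, stood at 274 against 149 CPM and 94.97 against 67.2 CPM. With a CFD UMI C1S had ratios of 1.94 and 1.69, C1R 1.77 and 1.35 and CLU 1.77 and 1.30, so 0 of 3 were past 2-fold in either library, where 1.03% and 0.0275% of all genes were. In the lowest over the highest cycle group, 3 of 3 were past 2-fold in the aorta, where 3.81% of all genes were, with CLU at 332 against 115 CPM. In the lung 1 of 3 was, C1S, where 0.957% of all genes were.

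Of 15 other genes of WAP domain proteins and protease inhibitors, 14 were among the features and 9 passed this limit in the aorta and 11 in the lung. With a SLPI UMI 1 was at least 2-fold higher in the aorta, SERPING1, the C1 inhibitor (70.2 against 33.3 CPM), where 1.49% of all genes were. None was in the lung, where 0.124% of all genes were and SERPING1 had a ratio of 1.64. CST3, an inhibitor of cysteine proteases, had ratios of 1.41 and 1.40 by SLPI and 1.58 and 1.64 by CRYAB. SERPINB2 went the other way, at 218 against 318 CPM by SLPI and 204 against 315 CPM by CRYAB in the lung. It was far higher in the lung library, at 298.5 CPM against 5.32 CPM in aorta ECs.

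Of 8 other small heat shock genes 6 were among the features. HSPB1, the relative of CRYAB with the highest level, stood at 640.1 CPM in aorta and 759 CPM in lung ECs. It had ratios of 1.35 (1.23 to 1.49) and 1.03 (0.997 to 1.07) by CRYAB and 1.09 and 1.10 by SLPI. Of the 3 genes of the list that passed the limit in the aorta, 1 was past 2-fold by SLPI, HSPB6, at 17.5 against 6.35 CPM from 25 and 12 UMIs, where 1.49% of all genes were. The 11 heat shock response genes had median differences by SLPI of −0.31 in the aorta and −0.17 in the lung on the log2 scale, with HSPD1, a mitochondrial chaperone, at 518 against 760 CPM and 612 against 813 CPM.

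Cycle arrest genes differed in how they went with SLPI. MDM2 had ratios of 1.61 in the aorta and 1.59 in the lung, BTG2 1.58 and 1.13, GADD45A 1.58 and 1.09 and CCNG1 1.27 and 1.23. CDKN2C, a cycle inhibitor, was lower with SLPI in the aorta at 22.5 against 47.1 CPM and had a ratio of 0.935 in the lung. CDKN1A, the gene of p21, was listed at only 1.67 CPM in aorta and 1.29 CPM in lung ECs and did not pass the limit. The interferon-induced list had median differences by SLPI of 0.82 in the aorta and 0.55 in the lung on the log2 scale, with 4 of 15 genes past 2-fold in the aorta, where 1.49% of all genes were, and 0 of 13 in the lung, where 0.124% were. ISG15 stood at 1234 against 590 CPM in the aorta and 724 against 495 CPM in the lung, and IFI6 at 1078 against 573 CPM and 482 against 245 CPM.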

How the data were processed

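Single-cell RNA-seq of cultured pig ECs was analysed, 1 library from the aorta and 1 from the lung, with 46080859 and 57213236 UMIs in all. The authors deposited raw UMI counts per gene and cell, made with Cell Ranger 3.0.2 from polyA RNA by 10x 3′ chemistry. The counts are not normalized. The genome was Sscrofa11.1, the strand setting of the counting is not given in the sources used here, and 1051 genes were named by matching identifiers to a RefSeq table while 6774 kept only an identifier.

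The limits on cells were more than 200 detected genes and less than 30% mitochondrial UMIs, over 12 genes. An upper limit of 5000 genes was used only as an alternative, since it leaves 246 aorta cells, 123 of them endothelial, against 5683 lung cells. Doublets were not called, and the alternative without the 5% of cells with most UMIs bears on them. UMIs were summed over cells as CPM with exact Poisson intervals, shares have Clopper-Pearson intervals and ratios exact conditional intervals, all at 95% and for counting error only. For shares and co-expression each cell was thinned to 5000 UMIs, and shallower cells, 41 aorta and 352 lung ECs, were left out. Genes were compared in the aorta-lung and cycle contrasts where they reached 10 CPM in either group, and in the others where 5% of thinned cells held a UMI, and were counted past 2-fold. Phases were scored with scanpy 1.11.5, correlations used the log of UMIs per 10000 plus 1, and cells tied at a top 1% or top 10% were taken in file order. The methods were tested on simulated data, with Python 3.11.15, numpy 2.4.6, pandas 2.3.3 and scipy 1.17.1.

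The 3 genes and the gene lists were chosen with earlier results of these data known. Named genes are the 3, the 5 with the highest r to each per library and by the lower r of both, and list members at the highest level or largest ratio. The alternatives without the top 1% of cells by a gene and without shared barcodes, and all those of the aorta-lung ratio, were added after seeing the data.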

Additional observations from a re-analysis of the deposited data

Results flagged for a closer look

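In 3 places the libraries lay on opposite sides of 1 with counting intervals clear of it, and in none was the difference tested. CFD in the 10% of ECs richest in inflammatory genes over the rest had a ratio of 0.863 in the aorta and 1.48 in the lung. Without the top 1% of cells by CFD these were 1.40 and 1.17, so the directions were then alike. CRYAB in the 10% richest in heat shock response genes had a ratio of 1.06 in the aorta and 0.408 in the lung, and 0.452 and 0.494 without the top 1% of cells by CRYAB. CFD in the lowest over the second cycle group had a ratio of 0.701 in the aorta and 1.77 in the lung, and 1.50 and 1.43 without its top cells. In each case leaving out 7 aorta and 53 lung cells ended the contrast in direction.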

How the results depend on the processing

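No paired analysis was possible because each tissue has 1 library. Of 138 alternative values, 78 stayed within the counting interval of the value reported, and 2, both the CFD ratio of aorta over lung, changed direction. The cause of these shifts was not tested. Leaving out cells under 1% mitochondrial UMIs or with shared barcodes moved none of the values past its interval.

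With cells under 5000 genes only, aorta levels of SLPI, CFD and CRYAB were 522, 29.9 and 325 CPM. Aorta ratios of CFD by SLPI, CRYAB by SLPI and CRYAB by CFD were 1.12, 2.30 and 1.72, those of the lowest over the highest cycle group 16.4, 4.62 and 2.17, and those of aorta over lung 4.93, 0.514 and 5.82. With 3 or more PECAM1 UMIs and no collagen UMI, aorta levels were 296, 54.8 and 304 CPM and lung SLPI 97.2 CPM. The co-expression ratios in the aorta were 1.48, 2.40 and 2.67, those of the cycle 3.84, 2.44 and 1.76 and those of aorta over lung 3.04, 0.959 and 5.59.

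Without the 5% of cells with most UMIs, aorta SLPI was 622 CPM, aorta CFD 80.1 CPM, lung CRYAB 53.1 CPM, the CRYAB cycle ratio in the aorta 2.93, and the aorta over lung ratios of SLPI and CRYAB 5.98 and 7.99. Thinning to 5000 UMIs gave aorta levels of 616, 91.4 and 418 CPM and a CFD ratio of aorta over lung of 1.60. Without thinning, the ratio of CRYAB by SLPI in the aorta was 2.01, and that of CRYAB by CFD was 1.55 in the aorta and 1.40 in the lung. G1 over S and G2M cells, in place of cycle groups, gave 5.11, 5.50 and 2.24 in the aorta and 3.05, 2.28 and 2.09 in the lung.

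Without the 1% of cells with most UMIs of the gene, aorta levels were 438.5, 49.5 and 378 CPM and lung levels 78.1, 48.1 and 46.4 CPM. The ratio of CFD by SLPI was 1.73 in the aorta and 1.42 in the lung, and that of CRYAB by SLPI in the lung 1.92. The cycle ratios were 4.98, 3.32 and 2.32 in the aorta and 3.43 and 2.13 for SLPI and CFD in the lung, and the aorta over lung ratios of CFD and CRYAB 1.03 and 8.14. Depth limited what could be said of single lung cells, since at a median of 9434 UMIs the median count of each of the 3 genes was 0.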

Other observations

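Genes other than SLPI, CFD and CRYAB also differed between ECs low and high in cycle genes. Of 16 interferon-induced genes 10 were at least 2-fold higher in the lowest than in the highest cycle group of the aorta, where 3.81% of all genes were, and 2 of 16 in the lung, where 0.957% were. IFIT2, IFIT1 and RSAD2, which act against viral RNA and replication, had aorta ratios of 4.43, 4.14 and 4.09. CST3, the cystatin C gene, stood at 2582 against 1308 CPM in the aorta and 1053 against 621 CPM in the lung. SERPINB2, an inhibitor of plasminogen activators, went the other way in the lung, at 196 against 406 CPM.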
